A study of Homo sapiens with 12 samples.

Results

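The genes described here lie on the long arm of chromosome 15, bands 15q15-q21, within 40 to 50 Mb of the GRCh38 build. They were given as 57 names, picked because this stretch was lower than wild type in the CTCF-B KO cells and not in the CTCF-A KO cells. The measured values therefore chose the members, and their differences between the groups are given below as a description, with no test. A row of the expression table carried the symbol of 54 of the 57, while KNL1, NUSAP1 and CEP152 were not analysed here because no row carried their symbol. All 54 passed the filter on low values and stand among 11128 genes tested in all. They run from BUB1B, which starts at 40161023, to GALK2, which ends at 49367869, and 24 other tested genes of the same 10 Mb are no members.

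The libraries come from U251-APP cells, a human glioblastoma line that stably carries mutant APP, the amyloid precursor protein, with the changes K670N and M671L. There are 12 libraries of total RNA in 3 groups, 4 wild-type, 4 with the CTCF-A KO and 4 with the CTCF-B KO. All 3 groups share the mutant APP and all carry a label of CRISPR/Cas9 editing, the wild type included. Each knockout was made with Cas9 and guide RNAs on both sides of a stretch that the labels call CTCF-A in one case and CTCF-B in the other, after the insulator protein CTCF. Single puromycin-resistant cells were picked and grown to clones, and the edited region of the clones was sequenced. Whether a knockout's 4 libraries come from separate clones or cultures, and whether the wild-type cells were cloned, is not stated, so the p-values reflect the spread among these libraries alone, which may be technical. They give no coordinates for either site. The library names of the CTCF-B KO contain MTCH2, a gene of chromosome 11, so if the name marks the site, the members lie on another chromosome. MTCH2 itself differed from wild type by -0.01 ± 0.06 (SE) on the log2 scale in the CTCF-B KO and by -0.46 ± 0.06 in the CTCF-A KO.

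CTCF binds DNA at many places in the genome, where it can stop the cohesin ring and so set which enhancers and promoters come into contact along one chromosome. The members share a chromosome stretch rather than a pathway. Among them are spindle and kinetochore proteins, chromatin and transcription factors, translation and splicing proteins, vesicle tethers, metabolic enzymes, a protein disulfide isomerase, and the extracellular matrix protein fibrillin-1, encoded by FBN1.

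The deposited values are normalized expression on a log2 scale, and the sequencing depth behind them is unknown. Of 11 astrocyte and glioma markers, 8 had a row, among them GFAP, VIM, NES and SOX2, while no row was found for any of the 5 immune markers. Summed over the 8 markers, the log2 level was 17.32 to 17.51 in the wild type, 16.78 to 16.95 in the CTCF-A KO and 16.69 to 16.73 in the CTCF-B KO. GFAP, the astrocyte filament protein, was lower by a log2 difference of -2.85 ± 0.07 (SE, 4 libraries a group) in the CTCF-B KO and -3.11 ± 0.07 in the CTCF-A KO. The neuron list had 4 of 6 markers measured, with a summed level of 15.25 to 15.36, 15.73 to 15.93 and 13.73 to 13.90 in the 3 groups in that order. Most of that sum is NEFL (-1.54 ± 0.05 in the CTCF-B KO), and MAP2 was lower too (-0.27 ± 0.10), whereas SYT1 and SNAP25 were higher there (0.71 ± 0.11 and 0.43 ± 0.09). The fibroblast list had 2 of 5 measured, at 14.93 to 15.04, 15.002 to 15.207 and 14.75 to 14.84. That sum is mostly COL1A2, and COL1A1 went the other way in the CTCF-A KO (-1.03 ± 0.05, against 0.11 ± 0.05 for COL1A2). KRT18, the 1 epithelial marker of 5 with a row, lay at 8.86 to 8.98, 8.53 to 8.82 and 8.49 to 8.60, and KDR, the 1 endothelial marker of 4, at 10.23 to 10.32, 8.97 to 9.30 and 9.40 to 9.52. The part of these shifts in the members' values was not tested. In bulk RNA such as this, fewer cells of a type and less RNA per cell cannot be told apart.

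A few promoters show the kind of sequence that stands before these genes. The table of RefSeq promoters for GRCh38.p14 held an entry for 44 of the 54 members and none for the other 10. FBN1 and RTF1 are shown as members far below wild type in the CTCF-B KO and KNSTRN as one near it. IVD and MGA were added after their values were seen, for the motifs they carry. Each run is written 5′ to 3′ on the gene's strand and ends at the base before the RefSeq start. Windows that overlap an annotated exon, such as those of DUT, GATM, OIP5 and HAUS2, are not printed. Capitals mark matches, on either strand, to 5 motifs spelled out after the sequences and to a core of the CTCF motif. A match on the other strand shows as the reverse complement. FBN1 lies on the minus strand at chr15:48644971-48645220, between annotated exons of the gene. RTF1 lies on the plus strand at chr15:41416845-41417094, IVD at chr15:40405545-40405794 and KNSTRN at chr15:40382471-40382720, both also on the plus strand. For MGA, on the plus strand, the run is the 221 bases at chr15:41660526-41660746 that precede an internal start of the gene.
FBN1: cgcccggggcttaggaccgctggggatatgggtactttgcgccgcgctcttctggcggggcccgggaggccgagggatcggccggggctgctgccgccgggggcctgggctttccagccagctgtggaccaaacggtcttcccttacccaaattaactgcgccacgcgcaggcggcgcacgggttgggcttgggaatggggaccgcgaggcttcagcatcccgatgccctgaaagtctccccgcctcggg
RTF1: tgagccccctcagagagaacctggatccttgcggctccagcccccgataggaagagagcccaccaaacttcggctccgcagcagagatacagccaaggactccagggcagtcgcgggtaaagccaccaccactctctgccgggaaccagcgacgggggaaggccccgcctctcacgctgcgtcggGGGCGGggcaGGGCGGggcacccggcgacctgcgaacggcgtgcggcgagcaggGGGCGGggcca
IVD: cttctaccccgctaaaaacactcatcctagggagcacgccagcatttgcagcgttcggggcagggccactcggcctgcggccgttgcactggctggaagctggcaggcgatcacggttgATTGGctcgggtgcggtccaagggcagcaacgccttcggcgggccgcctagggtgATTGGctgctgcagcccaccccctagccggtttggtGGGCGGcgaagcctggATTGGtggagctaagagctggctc
MGA: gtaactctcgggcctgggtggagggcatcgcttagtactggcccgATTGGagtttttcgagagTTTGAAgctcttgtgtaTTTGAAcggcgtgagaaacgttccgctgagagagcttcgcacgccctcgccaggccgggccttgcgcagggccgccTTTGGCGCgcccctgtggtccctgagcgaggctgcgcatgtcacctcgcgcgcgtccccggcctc
KNSTRN: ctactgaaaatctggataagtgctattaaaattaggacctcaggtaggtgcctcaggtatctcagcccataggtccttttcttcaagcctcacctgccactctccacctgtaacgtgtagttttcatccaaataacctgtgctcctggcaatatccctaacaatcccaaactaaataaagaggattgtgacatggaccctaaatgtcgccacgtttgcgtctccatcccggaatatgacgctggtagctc

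The IVD run holds CCAAT, the box bound by NF-Y, 3 times and GGGCGG, the box bound by SP1, once. In RTF1, GGGCGG occurs 3 times. The MGA run holds CCAAT once, TTTGAA (an element of cell-cycle promoters) 2 times and the E2F-type element TTTGGCGC once. No match to any of the 6 motifs lies in the FBN1 or the KNSTRN run, although FBN1 had the lowest value of all members relative to wild type in the CTCF-B KO and KNSTRN lay near wild type. Over the 250 bases before the start, CCAAT was found in 38.1% of the 63 entries of members, 33.3% of the 12363 entries of tested genes and 32.0% of the 35093 entries of all genes. GGGCGG was in 54.0% of the members' entries, below the 65.4% of tested genes and above the 42.6% of all genes. TTTGGCGC stood before DUT, MGA and OIP5, in 4.76% of the members' entries against 0.87% of tested and 0.55% of all genes. GGCGGGAA, another E2F-type element, stood before DUT, HAUS2, MFAP1, RMDN3 and TYRO3, in 7.94% against 4.35% and 2.72%. TTTGAA was in 11.1%, above the 8.65% of tested genes and below the 13.3% of all genes. The core of the CTCF motif was in none of the 63 entries and in 2.29% of tested and 2.02% of all genes, which says only that these letters are not in these windows. Overlapping matches to 2 motifs were each counted.

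In the CTCF-B KO, the members lay below wild type almost without exception. The log2 difference was below 0 in 52 of 54, with a median of -0.34, an SD over members of 0.23 and quartiles of -0.46 and -0.21. Its extremes were -1.004 for FBN1 and 0.295 for MAP1A, a microtubule-associated protein. Over all genes tested the median was 0.00, with an SD of 0.31. By limma with Benjamini-Hochberg adjustment over all 11128 genes at 0.05, 37 members were lower, 1 was higher (MAP1A) and 16 were not called. Of all genes tested, 20.6% were lower and 18.9% higher (39.4% in either direction), and nothing is read from the members' count, since the same contrast chose them. The model pools the spread of all 3 groups. With only the 2 groups compared, 47 members were lower, beside 30.1% of all genes. All 4 CTCF-B KO libraries lay below all 4 wild-type libraries for 46 members, beside 27.3% of all genes. The call of 10 of the 37 was lost when a single library was left out (BAHD1, CCDC32, CTDSPL2, GALK2, INO80, MGA, MYEF2, SPG11, TMEM87A and VPS18). For CTDSPL2, MGA and VPS18 this happened without any one of 10 libraries, and for INO80 only without wild type replicate 3.

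The 4 CTCF-B KO libraries resembled each other closely in this. Their median deviation of the members from the wild-type mean corresponds, on the linear scale, to 80.2%, 79.5%, 79.3% and 81.1% of wild type in replicates 1 to 4. In these libraries 53, 50, 52 and 52 of the 54 members lay below the wild-type mean. The wild-type libraries themselves stood at 99.1%, 100.4%, 100.8% and 99.1%. The CTCF-A KO libraries stood at 102.8%, 103.8%, 109.0% and 107.3%, so the medians of the 2 knockouts did not overlap.

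**Figure D1:**
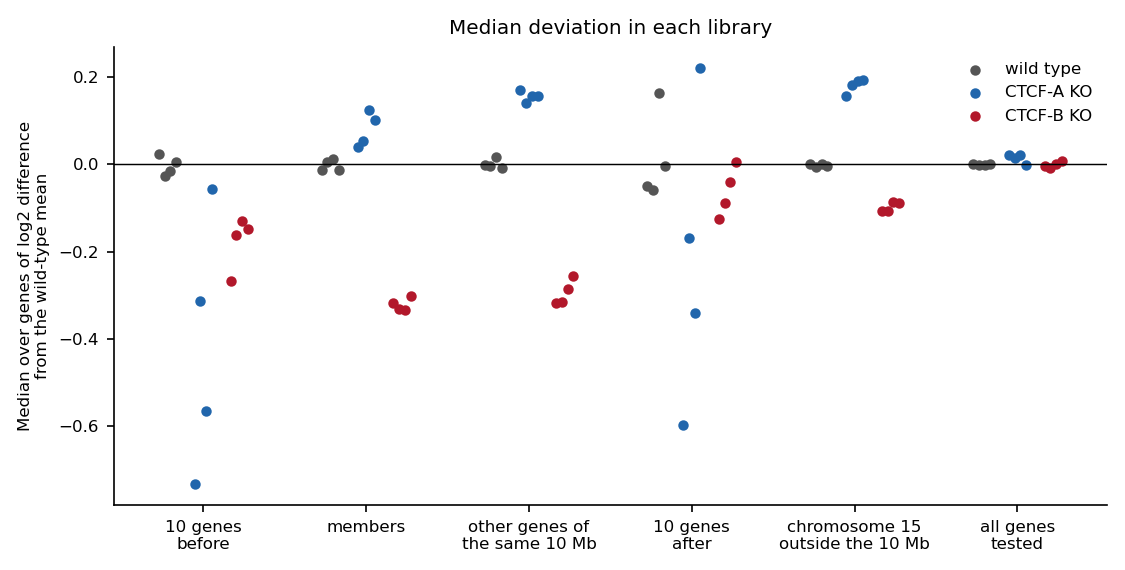
Median over genes of the log2 difference from the wild-type mean (vertical axis), 1 point per library, for the 10 tested genes before the stretch, the members, the other 24 genes of the same 10 Mb, the 10 genes after, the rest of chromosome 15 and all genes tested. The 4 CTCF-B KO points of the members lie between -0.335 and -0.30, and those of all genes tested lie near 0.

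**Figure D2:**
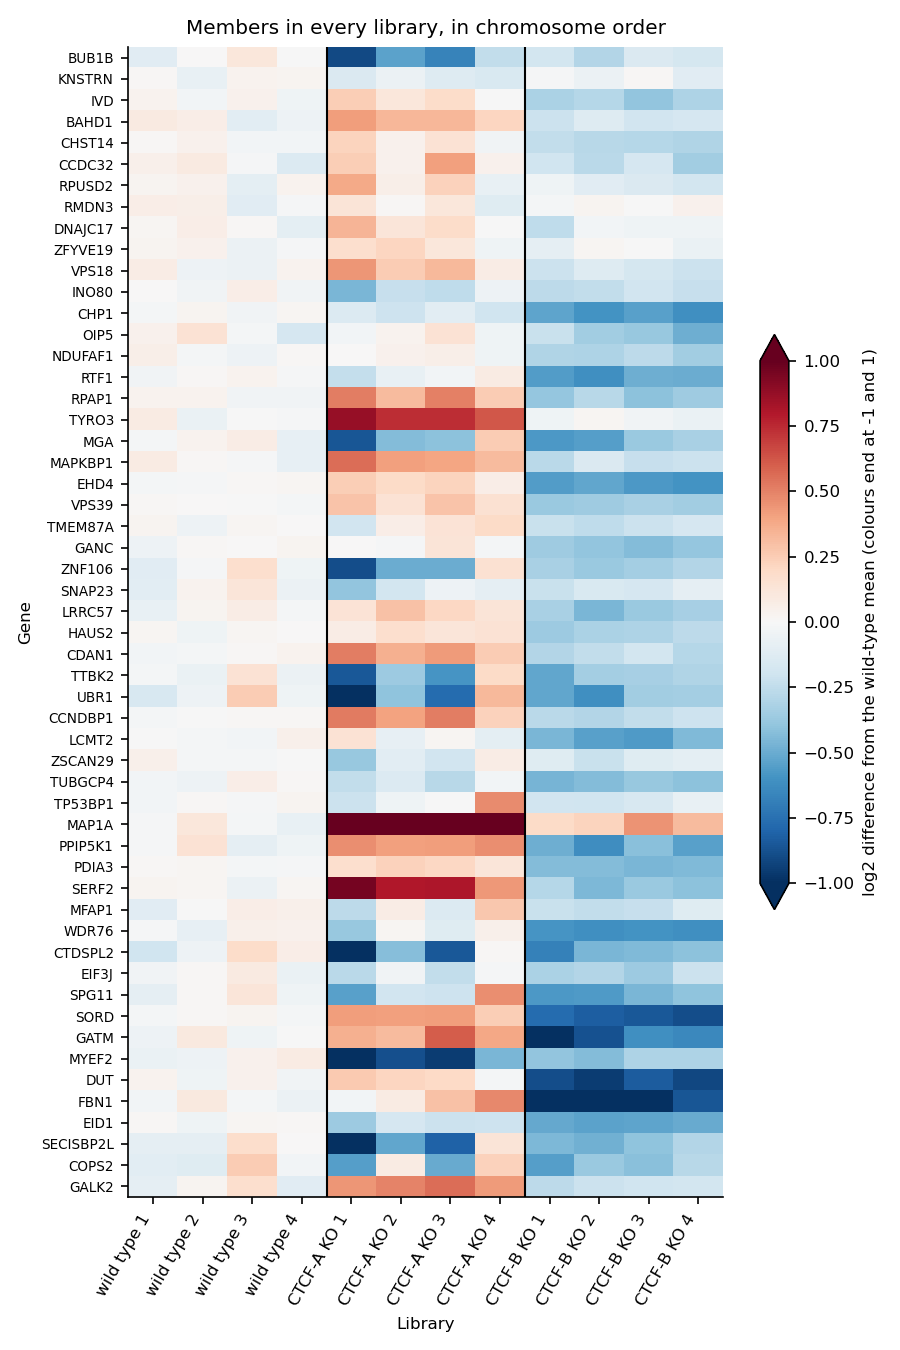
Log2 difference of each of the 54 members from its wild-type mean (colour, ending at -1 and 1) in each of the 12 libraries, with the genes in chromosome order from top to bottom. Blue fills most of the CTCF-B KO columns, while the CTCF-A KO columns hold both colours and MAP1A lies beyond the colour scale there.

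Among the chromosome segregation and centrosome genes, 3 of the 5 with a row were called lower in the CTCF-B KO and none higher, beside 20.6% and 18.9% of all genes. The choice of members bears on this count. TUBGCP4, a subunit of the gamma-tubulin ring complex that nucleates microtubules (43369221 to 43409771), read 9.17, 9.14, 9.25 and 9.20 in the wild type on the log2 scale. It read 8.73, 8.76, 8.81 and 8.78 in the CTCF-B KO and 8.95, 9.06, 8.91 and 9.16 in the CTCF-A KO. The CTCF-B KO libraries lie below all others, at a difference from wild type of -0.42 ± 0.06 (SE). HAUS2, a subunit of augmin, which branches spindle microtubules, read 9.39, 9.34, 9.40 and 9.38 in the wild type, 9.01, 9.06, 9.07 and 9.11 in the CTCF-B KO and 9.45, 9.55, 9.4985 and 9.52 in the CTCF-A KO. Here the 3 groups do not overlap, with the CTCF-B KO lowest at -0.32 ± 0.04 and the CTCF-A KO highest at 0.13 ± 0.04.

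OIP5, a subunit of the MIS18 complex that prepares centromeres for new CENP-A histone, was the lowest expressed of these genes. It read 6.63, 6.73, 6.57 and 6.42 in the wild type, 6.37, 6.24, 6.21 and 6.10 in the CTCF-B KO and 6.56, 6.63, 6.73 and 6.55 in the CTCF-A KO. The CTCF-B KO libraries lie below the wild type by -0.36 ± 0.08 and the CTCF-A KO libraries overlap it. Its antisense neighbour OIP5-AS1 overlaps it on the other strand, and the kit as labelled does not mark strand, so their reads may be mixed. BUB1B, the spindle checkpoint kinase BUBR1, had the highest wild-type level of the group at 9.89, 10.01, 10.12 and 10.00. Its CTCF-B KO values of 9.82, 9.71, 9.86 and 9.83 stand just below these. Its CTCF-A KO values of 9.10, 9.47, 9.34 and 9.76 have a lower mean and overlap those of the CTCF-B KO, replicate 4 lying above CTCF-B KO replicate 2. KNSTRN, a kinetochore partner of the spindle protein astrin, read 9.65, 9.56, 9.68 and 9.67 in the wild type, 9.63, 9.58, 9.65 and 9.53 in the CTCF-B KO and 9.4999, 9.58, 9.51 and 9.49 in the CTCF-A KO. Its CTCF-B KO and wild-type libraries overlap, at a difference of -0.04 ± 0.05.

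Of the 14 chromatin, transcription and genome maintenance genes, 11 were called lower in the CTCF-B KO and all 14 had every library below every wild-type library, beside 20.6% and 27.3% of all genes. As in each role group, the choice of members bears on these counts and nothing is read from them. WDR76, a WD-repeat protein that binds damaged DNA, was lowest relative to wild type. It read 9.77, 9.70, 9.83 and 9.83 in the wild type, 9.19, 9.17, 9.19 and 9.17 in the CTCF-B KO and 9.40, 9.80, 9.66 and 9.83 in the CTCF-A KO. The 4 CTCF-B KO libraries are tight and at 65.8% of wild type (-0.60 ± 0.08), whereas the CTCF-A KO libraries spread across the wild-type range and below it. EID1, an inhibitor of the acetyltransferase EP300, had the highest wild-type level of the group at 12.56, 12.51, 12.56 and 12.56. It read 12.04, 12.01, 12.02 and 12.05 in the CTCF-B KO (-0.52 ± 0.04) and 12.18, 12.38, 12.33 and 12.34 in the CTCF-A KO, so both knockouts lay below wild type and the CTCF-B KO lower.

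RTF1, which works with the PAF1 elongation complex on RNA polymerase II, differed by -0.54 ± 0.06. The phosphatase CTDSPL2, the MAX partner MGA and MYEF2, a repressor of myelin basic protein transcription, differed by -0.50 ± 0.19, -0.46 ± 0.17 and -0.36 ± 0.11. MYEF2 lay furthest below wild type of all members in the CTCF-A KO, at -0.87 ± 0.11. MGA stood at -0.36 ± 0.17 there and was not called, with replicate 4 at 8.89 above every wild-type library, and it read 0.25 with replicate 4 alone and 0.07 with the trend of GC content and length removed. RPAP1, an RNA polymerase II-associated protein, CCNDBP1, which binds cyclin D, and CDAN1 (codanin-1, a partner of the histone chaperone ASF1) lay at -0.36 ± 0.06, -0.25 ± 0.06 and -0.25 ± 0.06. In the CTCF-A KO the same 3 genes lay above wild type at 0.40 ± 0.06, 0.42 ± 0.06 and 0.38 ± 0.06, as did the heterochromatin protein gene BAHD1, at -0.18 ± 0.06 in the CTCF-B KO and 0.32 ± 0.06 in the CTCF-A KO. INO80, the ATPase of a nucleosome remodeller, stood at -0.23 ± 0.07 in the CTCF-B KO and -0.25 ± 0.07 in the CTCF-A KO, close to equal. The members not called in the CTCF-B KO were the zinc finger genes ZNF106 (-0.33 ± 0.16) and ZSCAN29 (-0.14 ± 0.08) and the DNA damage response gene TP53BP1 (-0.16 ± 0.11). The SE is pooled over the 3 groups, and the SD of ZNF106 was 0.12 in the wild type, 0.03 in the CTCF-B KO and 0.43 in the CTCF-A KO.

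Of the 6 RNA processing and translation genes, 2 were called lower in the CTCF-B KO, beside 20.6% of all genes, and the choice of members bears on the count. LCMT2, which makes the modified base wybutosine in tRNA, differed by -0.50 ± 0.06 and by -0.004 ± 0.06 in the CTCF-A KO. EIF3J, a loosely bound subunit of the translation initiation factor eIF3, had the highest wild-type level of the group at 10.23, 10.28, 10.36 and 10.20. It read 9.95, 9.97, 9.90 and 10.05 in the CTCF-B KO, below every wild-type library (-0.30 ± 0.06), and 10.00, 10.23, 10.02 and 10.25 in the CTCF-A KO, which overlaps the wild type. SECISBP2L, a relative of the factor that reads selenocysteine codons, lay at -0.41 ± 0.19, the SE being pooled over the 3 groups. The spliceosomal proteins MFAP1 and DNAJC17 lay at -0.20 ± 0.09 and -0.09 ± 0.08 and the pseudouridine synthase gene RPUSD2 at -0.12 ± 0.09. DNAJC17 read 7.30, 7.35, 7.29 and 7.18 in the wild type, 7.03, 7.25, 7.24 and 7.24 in the CTCF-B KO and 7.62, 7.40, 7.46 and 7.28 in the CTCF-A KO. Each knockout overlaps the wild type, while the CTCF-B KO libraries lie below those of the CTCF-A KO. It shares ground with ZFYVE19 on the other strand.

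In the membrane traffic and organelle contact group, 7 of 10 were called lower in the CTCF-B KO, beside 20.6% of all genes, and the choice of members bears on the count. CHP1, a calcium-binding cofactor of sodium-proton exchangers, read 11.39, 11.44, 11.37 and 11.43 in the wild type, 10.88, 10.81, 10.86 and 10.80 in the CTCF-B KO and 11.27, 11.20, 11.30 and 11.20 in the CTCF-A KO. The groups do not overlap, and the CTCF-B KO stands at 67.4% of wild type (-0.57 ± 0.04). EHD4, an ATPase of endocytic recycling with the highest wild-type level of the group, read 11.58, 11.59, 11.61 and 11.62 in the wild type, 11.04, 11.08, 11.03 and 10.9985 in the CTCF-B KO and 11.85, 11.79, 11.82 and 11.66 in the CTCF-A KO. It is thus at 67.8% of wild type in the CTCF-B KO and above it in the CTCF-A KO (0.18 ± 0.04).

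SPG11, spatacsin of the lysosome, lay at -0.50 ± 0.15 in the CTCF-B KO. VPS39 and VPS18, subunits of the HOPS complex that tethers vesicles to lysosomes, lay at -0.35 ± 0.04 and -0.18 ± 0.07 and, in the CTCF-A KO, at 0.22 ± 0.04 and 0.27 ± 0.07. CCDC32, which helps assemble the AP2 clathrin adaptor, lay at -0.25 ± 0.09 and the Golgi membrane protein gene TMEM87A at -0.22 ± 0.07. With the GC and length trend removed, CCDC32 read -0.18 and its call was lost. The remaining 3 were not called, and SNAP23, a SNARE of the plasma membrane, stood at -0.16 ± 0.08. ZFYVE19, a regulator of the abscission checkpoint, read 8.37, 8.39, 8.28 and 8.33 in the wild type, 8.25, 8.36, 8.34 and 8.27 in the CTCF-B KO and 8.51, 8.55, 8.45 and 8.30 in the CTCF-A KO. RMDN3, which links the endoplasmic reticulum to mitochondria, read 9.86, 9.85, 9.68 and 9.79, then 9.77, 9.82, 9.80 and 9.84, then 9.93, 9.81, 9.91 and 9.68 in the same order of groups. In both genes the CTCF-B KO and wild-type libraries overlap, at differences of -0.04 ± 0.06 and 0.01 ± 0.06.

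All 9 metabolic and mitochondrial genes were called lower in the CTCF-B KO, and each had every library below every wild-type library, beside 20.6% and 27.3% of all genes, and the choice of members bears on both counts. DUT, the dUTPase that keeps uracil out of DNA, read 11.04, 10.97, 11.06 and 10.98 in the wild type, the highest level of the group, and 10.12, 10.06, 10.18 and 10.10 in the CTCF-B KO. The CTCF-A KO libraries read 11.27, 11.23, 11.21 and 10.99, replicate 4 within the wild-type range and the others above it. DUT thus stood at 53.8% of wild type in the CTCF-B KO (-0.89 ± 0.06), though 8 annotated pseudogene copies could share its reads. SORD, sorbitol dehydrogenase of the polyol pathway, read 8.76, 8.79, 8.81 and 8.77 in the wild type, 8.01, 7.95, 7.93 and 7.90 in the CTCF-B KO and 9.20, 9.19, 9.20 and 9.03 in the CTCF-A KO. The groups are far apart, at 56.1% of wild type (-0.83 ± 0.05) and 129% (0.37 ± 0.05). GATM, which makes the creatine precursor guanidinoacetate, read 7.67, 7.82, 7.68 and 7.72 in the wild type, 6.73, 6.85, 7.11 and 7.08 in the CTCF-B KO and 8.08, 8.04, 8.33 and 8.11 in the CTCF-A KO. It shows the same order, at 58.1% of wild type (-0.78 ± 0.09) and 134% (0.42 ± 0.09).

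PPIP5K1, an inositol pyrophosphate kinase, lay at -0.52 ± 0.06 in the CTCF-B KO and 0.44 ± 0.06 in the CTCF-A KO. The glucosidase gene GANC lay at -0.39 ± 0.05, the leucine breakdown enzyme gene IVD at -0.32 ± 0.05 and NDUFAF1, an assembly factor of respiratory complex I, at -0.31 ± 0.05. CHST14, a dermatan sulfotransferase, and GALK2, a kinase of N-acetylgalactosamine, followed at -0.28 ± 0.05 and -0.22 ± 0.07. The call of GALK2 was lost with the GC and length trend removed, at -0.21. In the CTCF-A KO none of the 9 lay below wild type and 6 were called higher, beside 31.8% of all genes, the highest being GALK2 at 0.48 ± 0.07. The CTCF-A KO call of IVD was lost without any one of 11 libraries and that of DUT without any one of 5. DUT and IVD also read -0.019 and -0.0072 there when replicate 4 was the only CTCF-A KO library used. With the GC and length trend removed, CHST14 read -0.076 and was called lower there, and NDUFAF1 read -0.079.

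The protein folding and turnover group has 4 members, all with every CTCF-B KO library below every wild-type library and 2 of them called lower. The shares over all genes were 27.3% and 20.6%, and the choice of members bears on both counts. PDIA3, a protein disulfide isomerase of the endoplasmic reticulum and the member with the highest wild-type level, read 12.81, 12.81, 12.77 and 12.79 in the wild type. It read 12.36, 12.36, 12.34 and 12.35 in the CTCF-B KO and 12.97, 13.03, 13.00 and 12.92 in the CTCF-A KO. The groups are separate and tight, at 73.6% of wild type (-0.44 ± 0.03) and 114% (0.18 ± 0.03). SERF2, a small protein that promotes amyloid formation, lay at -0.38 ± 0.09 and at 0.75 ± 0.09 in the CTCF-A KO. The ubiquitin ligase gene UBR1 and the COP9 signalosome subunit gene COPS2 lay at -0.46 ± 0.23 and -0.40 ± 0.16 and were not called. The SE pools the spread of all 3 groups. The SD of UBR1 was 0.18 in the wild type, 0.13 in the CTCF-B KO and 0.62 in the CTCF-A KO.

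The signalling, cytoskeleton and matrix genes held both ends of the range, with 3 of 6 called lower and 1 higher in the CTCF-B KO. Of all genes 20.6% were lower and 18.9% higher, and the choice of members bears on the counts. FBN1, fibrillin-1 of the microfibrils that bind latent TGF-beta, read 9.98, 10.11, 9.99 and 9.95 in the wild type, the highest level of the group. It read 9.01, 8.90, 8.96 and 9.15 in the CTCF-B KO and 9.98, 10.09, 10.30 and 10.49 in the CTCF-A KO. The CTCF-B KO is at 49.9% of wild type (-1.004 ± 0.096) and the CTCF-A KO overlaps it (0.21 ± 0.10). MAP1A read 7.38, 7.51, 7.38 and 7.32 in the wild type, 7.59, 7.62, 7.84 and 7.72 in the CTCF-B KO and 9.08, 8.98, 9.16 and 8.98 in the CTCF-A KO. It was above wild type in both knockouts, at 123% and 315% of wild type. TYRO3, a receptor tyrosine kinase for the ligands GAS6 and PROS1, read 9.75, 9.60, 9.65 and 9.65 in the wild type, 9.62, 9.68, 9.63 and 9.60 in the CTCF-B KO and 10.53, 10.40, 10.40 and 10.28 in the CTCF-A KO. Its CTCF-B KO libraries overlap the wild type (-0.03 ± 0.05), while its CTCF-A KO libraries lie above both (0.74 ± 0.05). The JNK-binding scaffold gene MAPKBP1 and the leucine-rich repeat gene LRRC57 lay at -0.22 ± 0.06 and -0.37 ± 0.06, and TTBK2, a kinase of cilium formation, at -0.37 ± 0.16 and not called. The call of MAPKBP1 was lost with the GC and length trend removed, at -0.069. The SE is pooled over the 3 groups, and the SD of TTBK2 was 0.10 in the wild type, 0.10 in the CTCF-B KO and 0.44 in the CTCF-A KO.

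**Figure D3:**
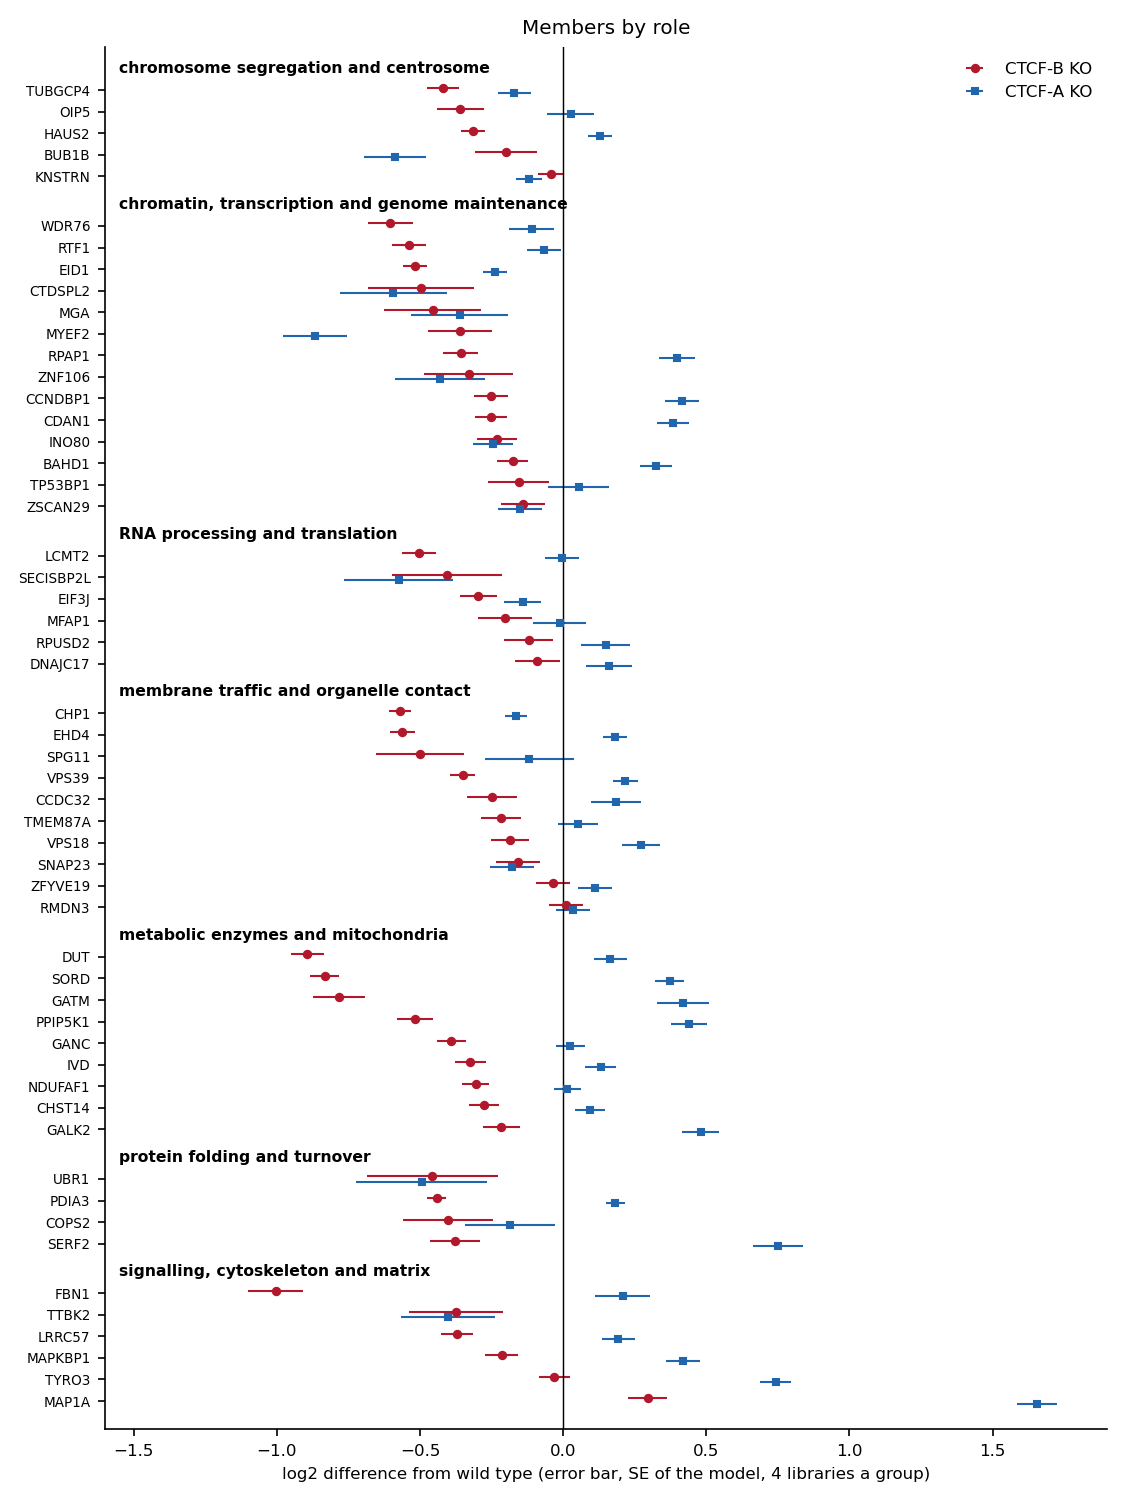
Log2 difference from wild type of each member (horizontal axis, with the SE of the model, 4 libraries a group) in the CTCF-B KO (red circles) and the CTCF-A KO (blue squares), grouped by role. The red points lie left of 0 except RMDN3 at 0.01 and MAP1A at 0.295, whereas the blue points fall on both sides, from -0.87 to 1.65.

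The 2 knockouts were compared with the same wild-type libraries, so their values are given side by side only. In the CTCF-A KO the members' median log2 difference was 0.05, with an SD over members of 0.40, against 0.00 and 0.41 over all genes tested. There 11 members were called lower and 20 higher, beside 31.1% and 31.8% of all genes (62.9% in either direction). All 4 libraries lay below all 4 wild-type libraries for 5 members (22.1% of all genes) and above them for 18 (25.7%). The count of 11 rested on single libraries, being 7 without CTCF-A KO replicate 3, 6 without wild type replicate 3 and 18 without CTCF-A KO replicate 4. Set directly against the CTCF-A KO, the CTCF-B KO was lower in 38 members and higher in 2 (MYEF2 and BUB1B), beside 33.4% and 32.6% of all genes (66.0% in either direction), with a median of -0.40. For 33 members, all 4 CTCF-B KO libraries lay below all 4 CTCF-A KO libraries, beside 28.3%.

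The CTCF-A KO libraries also differed among themselves in a dependence on base composition. Between the fifth of all genes with the highest GC content and the fifth with the lowest, the difference from wild type was 0.91, 0.45, 0.64 and 0.09 log2 units in CTCF-A KO replicates 1 to 4. It ran from -0.12 to 0.08 in the wild type and from -0.08 to 0.03 in the CTCF-B KO. Over the 54 members, which share these libraries, the CTCF-A KO difference correlated with GC content at r = 0.596 and rho = 0.623, and at r = 0.127 once a trend with GC content and length had been removed. In the CTCF-B KO the same r was 0.362 and rho 0.373, with 0.419 after the removal. With the trend removed, the members' median was -0.31 in the CTCF-B KO, with 41 called lower and 1 higher (25.0% and 28.9% of all genes), and 0.12 in the CTCF-A KO, with 8 lower and 26 higher (30.0% and 31.5%). TTBK2 and TUBGCP4, called lower in the CTCF-A KO, then read 0.0485 and 0.063 there. For CTDSPL2, ZNF106, SECISBP2L and TTBK2 the CTCF-A KO difference was 0.011, 0.15, 0.13 and 0.19 with replicate 4 as its only library, against -0.59, -0.43, -0.57 and -0.40 with all 4.

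Along the stretch, the members at its start lay nearer to wild type in the CTCF-B KO than those further on. The 12 members that start between 40 and 41 Mb had a median of -0.18, with 6 called lower, the lowest of them being IVD at -0.32. The 9 of the next Mb had -0.36, the 10 at 42 to 43 Mb -0.34, the 11 at 43 to 44 Mb -0.38 and the 3 at 44 to 45 Mb (CTDSPL2, EIF3J and SPG11) -0.50. SORD and GATM, at 45 to 46 Mb, had -0.81, and the 5 at 48 to 49 Mb -0.52. COPS2 and GALK2, the last 2, had -0.31. Over the 54 members the difference correlated with start position at r = -0.478 and rho = -0.513, a description over neighbouring genes of the same libraries. Without the first Mb, a limit chosen after the values were seen, 42 members remained, with a median of -0.38 and 31 called lower. At the first limit, EIF2AK4, the last tested gene before 40 Mb, stood at -0.17, SRP14, the first tested gene inside it and no member, at -0.33 and BUB1B, the first member, at -0.20. At the other limit, GALK2, the last member, stood at -0.22, DTWD1, the last tested gene inside it and no member, at -0.41 and GABPB1, the first tested gene after 50 Mb, at -0.08.

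**Figure D4:**
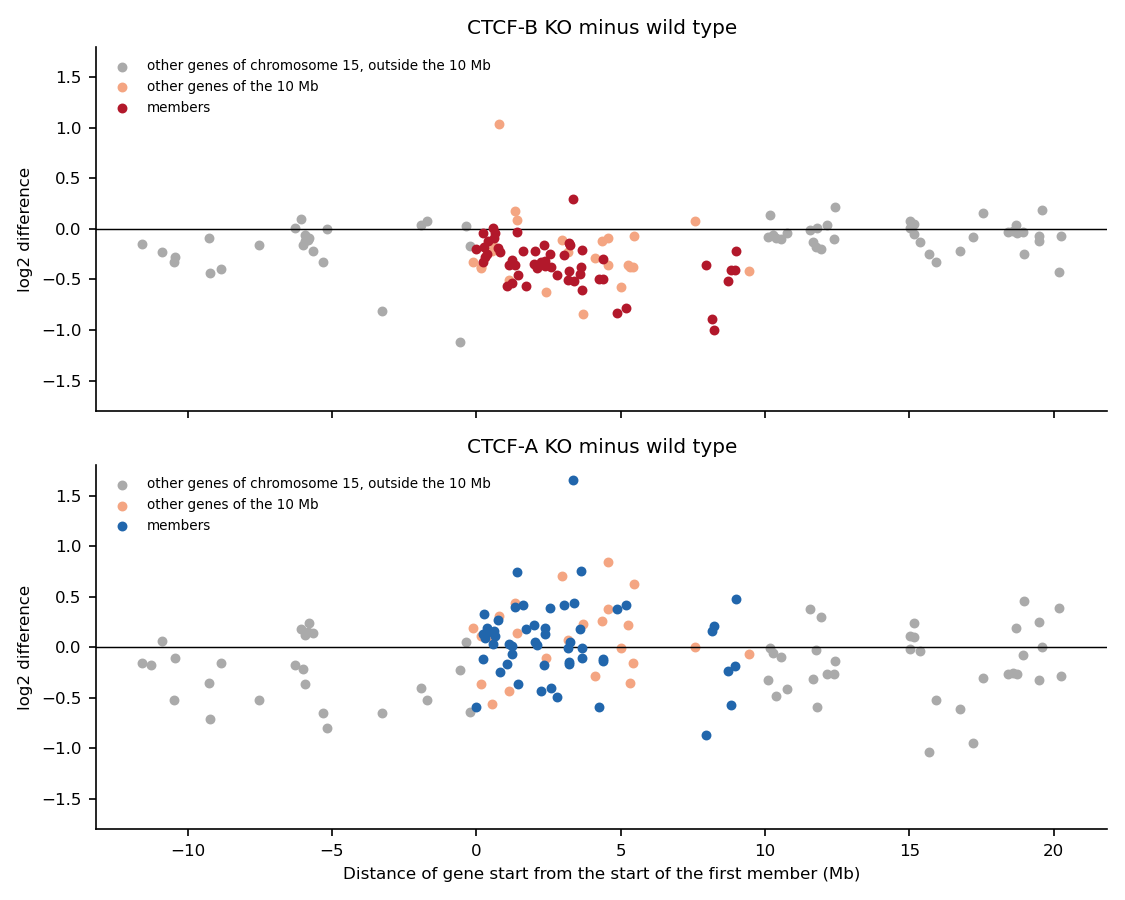
Log2 difference from wild type (vertical axis) of tested genes of chromosome 15 against the distance of their start from the start of BUB1B in Mb (horizontal axis), for the CTCF-B KO (top) and the CTCF-A KO (bottom). In the top panel the members run together below 0 over about 9 Mb, and the genes past the stretch return towards 0.

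The 24 other tested genes of the same 10 Mb, which bear no member name but lie in the stretch that was picked, had a median of -0.31 in the CTCF-B KO and 0.10 in the CTCF-A KO. In the CTCF-B KO 11 were called lower and 1 higher, beside 20.6% and 18.9% of all genes, and in the CTCF-A KO 4 lower and 10 higher, beside 31.1% and 31.8%. Furthest below wild type was FRMD5, a FERM-domain protein, which read 10.23, 10.15, 10.11 and 10.16 in the wild type and 9.28, 9.26, 9.41 and 9.33 in the CTCF-B KO, with 10.30, 10.44, 10.33 and 10.49 in the CTCF-A KO. Its CTCF-B KO libraries lie below all others, at -0.84 ± 0.05. STARD9, SHF, OIP5-AS1, DTWD1, INAFM2, CCDC9B, BLOC1S6, B2M, SPATA5L1 and SRP14 were called lower too, between -0.63 and -0.33. The calls of BLOC1S6 and DTWD1 were lost without any one of CTCF-B KO replicates 1 and 2 or wild type replicate 3, and that of DTWD1 also without wild type replicate 4. B2M, the light chain of HLA class I molecules, read 14.18, 14.16, 14.18 and 14.20 in the wild type, 13.83, 13.81, 13.81 and 13.81 in the CTCF-B KO and 15.15, 15.07, 15.06 and 14.82 in the CTCF-A KO. It thus stood on opposite sides of wild type in the knockouts (-0.36 ± 0.06 and 0.85 ± 0.06). CHAC1, a glutathione-degrading enzyme of the unfolded protein response, was the 1 gene called higher, at 7.07, 7.16, 6.98 and 7.33 in the wild type and 8.20, 8.26, 8.11 and 8.12 in the CTCF-B KO (1.04 ± 0.09). SLC30A4, CASC4, ADAL, EIF3J-DT, TMEM62, TRIM69, SQOR, AC044787.1, ELOCP2 and ITPKA were not called, with values from -0.38 to 0.18.

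Genes of chromosome 15 outside the stretch are no members and are given for comparison. Of the 10 tested genes before it, 2 fell in the CTCF-B KO by limma with Benjamini-Hochberg adjustment, beside 20.6% of all genes, and the median was -0.13. The 2 that fell were THBS1, the matrix protein thrombospondin-1, at -1.12 ± 0.05 (adjusted p = 4.84e-09), and the homeobox gene MEIS2 at -0.81 ± 0.07 (adjusted p = 2.14e-06), and in both all 4 libraries lay below all 4 wild-type libraries. LPCAT4, HNRNPLP2, AQR, ZNF770, SPRED1, FAM98B, GPR176 and EIF2AK4 did not pass in the CTCF-B KO, with values from -0.33 to 0.08. However, EIF2AK4 fell (-0.17, adjusted p = 0.00283 by limma) without CTCF-A KO replicate 4, and the call of AQR also changed with 1 library left out. With the GC and length trend removed, AQR (-0.28) and HNRNPLP2 (-0.24) were called lower. None of the 10 genes after the stretch (GABPB1, GABPB1-IT1, USP8, TRPM7, SPPL2A, AP4E1, LYSMD2, TMOD3, LEO1 and MAPK6) passed by limma, and 0 had an unadjusted p under 0.05. Their values ran from -0.17 to 0.14 with a median of -0.07. With the GC and length trend removed, TMOD3 was called lower (-0.096), and the calls of SPPL2A and LEO1 changed under some other alternatives. The SE is pooled here too, and the SD of USP8 was 0.16 in the wild type, 0.17 in the CTCF-B KO and 0.60 in the CTCF-A KO. In CTCF-A KO replicates 1 to 4 the median of these 10 genes stood at 66.0%, 89.0%, 78.9% and 116.6% of wild type. Over all 263 tested genes of chromosome 15 outside 40 to 50 Mb, 71 were lower and 16 higher, beside 20.6% and 18.9% of all genes. Their median was -0.09, between that of the members and that of all genes. Windows of 10 Mb across the genome were ranked when they held at least 10 tested genes. Of these 279, the window at 40 to 50 Mb of chromosome 15 (78 genes, members and others together) had the 2nd lowest CTCF-B KO median, at -0.33. The lowest, at -0.46, was a window of 15 genes on chromosome X from 60 to 70 Mb. In the CTCF-A KO the same window of chromosome 15 ranked 225 from the lowest, at 0.08. The window was picked for being low in the CTCF-B KO and not in the CTCF-A KO, so nothing is read from either rank.

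The members do not share one level, length or base composition. Their wild-type means ran from 6.59 to 12.80 on the log2 scale, with a median of 9.62 against 9.30 over all genes tested. The longest transcript had a median GC content of 46.1% against 48.7%, and a median length of 4877 bases against 3459. The median gene span was 40.9 kb against 28.4 kb. Across the members the CTCF-B KO difference correlated with wild-type level at r = -0.27, with gene span at r = -0.308 and with transcript length at r = -0.099. Overlap with another tested gene on the opposite strand could mix reads for DNAJC17 and ZFYVE19, OIP5, TMEM87A and GANC, SNAP23 and LRRC57, ZSCAN29, TUBGCP4 and TP53BP1, CTDSPL2, EIF3J and SPG11, and COPS2 and GALK2. Annotated pseudogene copies could share reads with DUT (8), PDIA3 (2), SNAP23 (1) and MFAP1 (1). These were found by name alone, as the member's symbol followed by P and a number, so copies named otherwise were not counted.

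Genes elsewhere in the genome that work with the members were examined next, list by list. Of 179 listed partner names, 153 were tested, and 33 fell and 27 rose in the CTCF-B KO, near the 20.6% and 18.9% of all genes, with a median of -0.01. In the CTCF-A KO 49 fell and 48 rose, beside 31.1% and 31.8%. The members were chosen for low values in this contrast and the partners were not, so a member's place below its partners follows from the choice and nothing is read from it. The calls of VPS33A, VPS11, INO80C, TFPT, MAX, RNF8, USP28, BCKDHB, NDUFAF4 and ZFYVE26, counted below, were lost when some single library was left out.

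Among kinetochore and spindle checkpoint genes 9 of 26 fell and 4 rose in the CTCF-B KO, around BUB1B at -0.20, KNSTRN at -0.04 and OIP5 at -0.36. ZWINT, which links the outer kinetochore to the checkpoint, and the MIS12 complex subunit gene NSL1 fell (-0.41 ± 0.05, adjusted p = 1.60e-05, and -0.32 ± 0.05, adjusted p = 0.00025). BUB3, the partner of BUBR1, rose (0.27 ± 0.04, adjusted p = 0.000243). Of 14 augmin and gamma-tubulin complex genes 1 fell, TUBGCP6 (-0.31 ± 0.05, adjusted p = 0.000326), beside HAUS2 at -0.32 and TUBGCP4 at -0.42. None of the 3 centriole duplication genes with a row (STIL, CEP192 and CEP57) passed by limma in the CTCF-B KO, 0 at an unadjusted p under 0.05, while all 3 fell in the CTCF-A KO. There CEP192 alone had all 4 libraries below all 4 wild-type libraries, and with the GC and length trend removed the median went from -0.63 to -0.31 and CEP57 was not called.

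Among tethers, 2 of 6 HOPS and CORVET genes fell and 1 rose, with TGFBRAP1 at -0.27 ± 0.04 (adjusted p = 7.23e-05), beside VPS39 at -0.35 and VPS18 at -0.18. In the INO80 remodeller 1 of 12 fell (NFRKB, -0.19 ± 0.04, adjusted p = 0.00201) and 3 rose. None of 5 PAF1 complex genes passed by limma (1 at an unadjusted p under 0.05), beside RTF1 at -0.54. Of 10 genes of the MGA-containing PRC1.6 complex 2 fell and 2 rose, RING1 being highest at 0.44 ± 0.06 (adjusted p = 8.90e-05) and L3MBTL2 lowest at -0.24 ± 0.06 (adjusted p = 0.00548). In the TP53BP1 pathway 1 of 6 fell, USP28, whose call was lost without any one of 7 libraries, and 2 rose.

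No eIF3 subunit fell and 4 of 12 rose, EIF3M by 0.25 ± 0.06 (adjusted p = 0.00298) and EIF3H by 0.14 ± 0.04 (adjusted p = 0.00892), beside EIF3J at -0.30. Of 8 COP9 signalosome genes 2 fell and 2 rose, with COPS3 at 0.32 ± 0.04 (adjusted p = 2.45e-05). Among 8 disulfide isomerase and lectin chaperone genes 1 fell, PDIA6 (-0.23 ± 0.04, adjusted p = 0.000294). The lowest value of that list, -0.61, belonged to another gene, which was not called. In leucine breakdown 3 of 9 fell and 1 rose, with MCCC2 at -0.16 ± 0.03 (adjusted p = 0.00259), beside IVD at -0.32. Of 11 complex I assembly genes none fell and 2 rose, ECSIT by 0.52 ± 0.07 (adjusted p = 9.64e-05), beside NDUFAF1 at -0.31. None of 5 SPG11 and AP-5 genes fell and 3 rose, AP5Z1 by 0.45 ± 0.06 (adjusted p = 0.000133), beside SPG11 at -0.50.

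Of 9 genes of thymidylate and dNTP supply 5 fell and 2 rose in the CTCF-B KO. Thymidylate synthase, TYMS, fell (-0.45 ± 0.05, adjusted p = 5.72e-06), as did RRM2, a subunit of ribonucleotide reductase (-0.21 ± 0.03, adjusted p = 0.000183). DUT, which supplies the dUMP that TYMS methylates, stood at -0.89. Of 5 microfibril and elastic fibre genes 3 fell and 1 rose. LTBP3 and LTBP4, which hold latent TGF-beta in the matrix, fell by 0.32 and 0.33 on the log2 scale, and LTBP1 rose by 1.13 ± 0.04 (adjusted p = 3.33e-10), beside FBN1 at -1.004. Of the 4 TAM receptor and ligand genes 3 fell, including GAS6 (-0.47 ± 0.06, adjusted p = 6.29e-05), beside TYRO3 at -0.03.

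**Figure D5:**
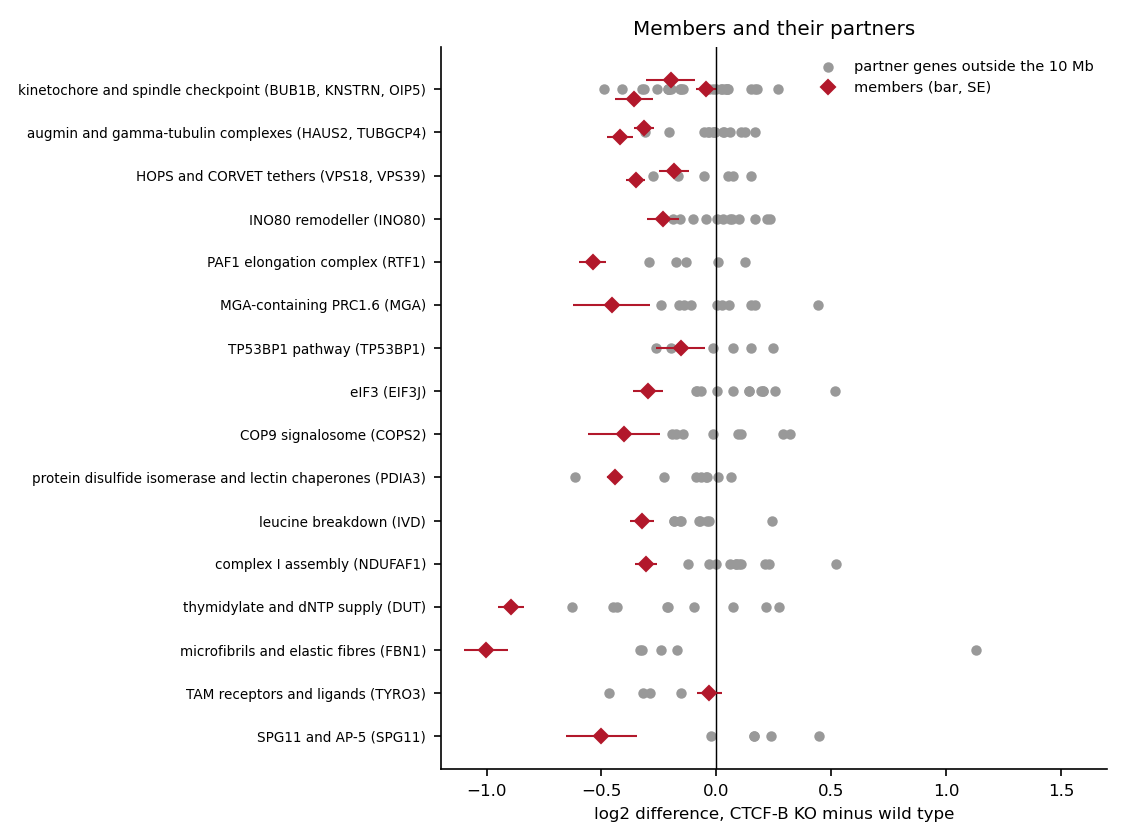
Log2 difference between CTCF-B KO and wild type (horizontal axis) of partner genes outside the 10 Mb (grey) and of the members they work with (red diamonds, bar for the SE), by complex or pathway. The diamonds were chosen for low values in this contrast and the grey points were not, and the grey points lie on both sides of 0 in most rows.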

How the data were processed

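RNA sequencing libraries from 12 samples in 3 groups of 4 were analysed. Per the submitters' processing notes, reads were trimmed with Trimmomatic 0.33, counted with featureCounts and analysed with DESeq2 on GRCh38.p7. The aligner, annotation, strand setting and gene filter are not given in the sources used here. The values the authors deposited are normalized expression of 11178 genes, in log2 units judging by their range, and they were used as they stood, although the design had allowed for linear values. Depth is unknown, so no counting interval is given.

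A gene was kept when its linear value was at least 10 in at least 4 libraries, which removed 50. The test was limma 3.58.1 (R 4.3.3) with 1 mean for each group over the 12 libraries together (trended empirical Bayes variance, two-sided, Benjamini-Hochberg adjustment over 11128 genes at 0.05). Differences are between group means, printed with the SE of the model. The SE pools the spread of all 3 groups, so a wide spread in the CTCF-A KO also widens the SE of the CTCF-B KO difference. On simulated data for the CTCF-B KO against wild type over 11128 genes, changes of 0.25, 0.5, 1 and 2 log2 units were recovered in 26%, 90%, 96% and 100% of 50 genes each, and 5.45% of calls were false. Only these genes were changed there, with an equal spread in every group, whereas 39.4% of genes were called in the data. The rates therefore do not carry over to the real fit. Positions come from GENCODE 29, which held 11151 of the identifiers, and promoters from RefSeq (GRCh38.p14). The GC and length trend was fitted per library with splines of 5 and 4 degrees of freedom.

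The members, role groups, partner and marker lists and tests were chosen with earlier results of these data known. Values in every library are given for the 6 members furthest below wild type in the CTCF-B KO, the 6 nearest to or above it, the member with the highest wild-type level of each role group and the chromosome segregation genes. Other genes of the 10 Mb and the 10 tested genes on either side are named, and at most 3 partners a list, by adjusted p, except that some items are not reported here. Promoters were to be those of the largest falls, but most of these windows overlap exons.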

Additional observations from a re-analysis of the deposited data

Results flagged for a closer look

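Of 297 groups of 4 libraries examined for members and their neighbours, 11 held a library whose gap to the other 3 was large for the group's range. Chance flags about 1 in 20 groups (5%), which is more than were found. Among members, the lowest library stood apart for RPUSD2 in the wild type (7.52, the others 7.64 to 7.65), SERF2 in the wild type (11.63, the others 11.71 to 11.72) and EID1 in the wild type (12.51, the others all near 12.56). The same held for DNAJC17 in the CTCF-B KO (7.03, the others 7.24 to 7.25) and SORD in the CTCF-A KO (9.03, the others 9.19 to 9.20). MFAP1 had a high library in the CTCF-B KO (9.69, the others 9.57 to 9.59).

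Among neighbours, SRP14 was low in 1 CTCF-A KO library (11.87, the others 12.16 to 12.19) and TRIM69 high in 1 (9.62, the others 9.38 to 9.40). SPATA5L1 was low in 1 CTCF-B KO library (7.83, the others 7.87), as was GPR176 (9.09, the others 9.32 to 9.34). TRPM7 was high in 1 wild-type library (9.35, the others 8.91 to 8.97).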

How the results depend on the processing

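The count of members lower in the CTCF-B KO was 37, between 28 and 46 with 1 library left out and between 34 and 47 under the other 11 alternatives, and their median log2 difference stayed between -0.35 and -0.31. All 38 members called in either direction there kept it in all 23 alternatives and 27 were called in every one. In the CTCF-A KO the count of 11 members lower became 4 with replicate 4 as its only library, 7 with library medians aligned, 7 with only the 2 groups compared, and 6 to 18 with 1 library left out. Of the 31 called there, 24 kept their direction. The other genes of chromosome 15 lower in the CTCF-B KO numbered 71, and 112 with only the 2 groups compared or with replicate 4 alone for the CTCF-A KO, and partners numbered 33 and 51, while the share of all genes called lower went from 20.6% to 30.1% under the same settings. The cause of these shifts was not tested. Signs reversed in the CTCF-A KO with replicate 4 alone for IVD (-0.0072), DUT (-0.0194), ZNF106 (0.15), TTBK2 (0.19), CTDSPL2 (0.0114) and SECISBP2L (0.13), with the GC and length trend removed, with or without the block, for TTBK2 (0.0485) and TUBGCP4 (0.063), and in the CTCF-B KO with quantile normalization for the partner PDIA4 (0.0684). Members not called in the CTCF-A KO that turned sign and were called with the trend removed were RMDN3 (-0.14), CHST14 (-0.076), WDR76 (0.18), SPG11 (0.20) and COPS2 (0.32).

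Same-numbered libraries of different groups correlated at -0.319 to 0.433 in their deviations from the group means. Replicate 1 was matched best by replicate 1 in each pair of groups, and CTCF-A KO replicate 4 by CTCF-B KO replicate 4. The other libraries matched another number best, and the labels do not state whether the numbers mark a pairing. With a replicate block, 38 members were lower in the CTCF-B KO (COPS2 gained) and 12 in the CTCF-A KO (SNAP23 and UBR1 gained, KNSTRN lost), where IVD was no longer called higher. The limits of these data are an unknown depth, clones or cultures that cannot be told apart, reads that may mix across strands, and 4 libraries a group. Members were chosen on the contrast described.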
